A study of Mus musculus with 22 samples.

Results

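The genes described here carry out MHC class I antigen presentation, by which a cell shows fragments of its own proteins on its surface. They are 10 genes named by function: the heavy chains H2-K1 and H2-D1, their light chain B2m, the peptide transporter Tap1 and Tap2, the loading factor Tapbp, the immunoproteasome subunits Psmb8, Psmb9 and Psmb10, and the transcriptional activator Nlrc5. All probes of the array whose RefSeq accession belongs to one of these genes were used. This gave 12 of the 55681 probes other than controls, since H2-K1 and Nlrc5 had 2 probes each, and 10 of the 22330 genes tested. All 12 probes were well above background on all 22 arrays, so that no gene was lost to the filter on dim signal.

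Transcript expression was assayed in cultured mouse macrophages derived from bone marrow (BMDM), grown for 9 days with 10 ng/ml M-CSF, the growth factor that drives macrophage development, from the femurs of male mice (C57BL/6 in the labels, a C57BL/6J background for the knockouts in the methods) aged 10 to 14 weeks. The mice were wild-type (wt), lacked the stress-activated kinase MK2 (MK2-/-) or lacked MK2 and its relative MK3 (MK2/3-/-). Cells received medium alone or 100 ng/ml lipopolysaccharide (LPS), a cell wall component of Gram-negative bacteria that activates macrophages through TLR4, for 360 min. There were 4 arrays of wt BMDM in medium and 3 in LPS, 4 and 4 of MK2-/- BMDM, and 3 and 4 of MK2/3-/- BMDM. The comparisons ask whether LPS changes the class I pathway genes and whether the loss of MK2, or of MK2 and MK3, alters their levels or their LPS response.

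Values are log2 of the background-corrected fluorescence of a probe, quantile normalised over the 22 arrays, and a difference of 1 is a doubling of signal. Levels of different probes are not comparable with each other. A gene was called where limma, a linear model with variances moderated over all genes, gave a Benjamini-Hochberg adjusted p under 0.05 over all genes tested. The median processed signal of an array was 32.7 to 107.8, and 61.0% to 78.0% of probes were well above background. Spots marked as irregular numbered 115 to 261 on 21 arrays and 2927 on MK2-/- LPS replicate 3. Mapkapk2, which encodes MK2, differed from wt by -3.02 in medium and -3.29 in LPS in MK2-/- BMDM, and by -3.46 and -3.87 in MK2/3-/- BMDM. Mapkapk3, which encodes MK3, differed from wt by -1.97 in medium and -4.11 in LPS in MK2/3-/- BMDM. The 5 tested macrophage markers were well above background in every group, with a summed log2 signal of 18.68 to 19.51. Summed signals were 10.69 to 13.51 for dendritic cell, 6.77 to 7.99 for B cell, 9.73 to 12.25 for T cell, 10.89 to 12.60 for neutrophil and 8.68 to 16.64 for fibroblast markers. All arrays of a genotype lay on 1 slide, so genotype and slide cannot be told apart in any comparison of genotypes. In a culture measured in bulk, fewer cells that express a gene and less of its RNA per cell cannot be told apart either.

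The proteasome, a barrel of protein-cutting subunits, breaks cytosolic proteins into peptides. Interferons make cells exchange its constitutive catalytic subunits for Psmb8, Psmb9 and Psmb10, which changes the peptides produced. Tap1 and Tap2 form the pump that carries peptides into the endoplasmic reticulum, where Tapbp, known as tapasin, holds empty class I molecules beside the pump until a peptide fits. Nlrc5 enters the nucleus and switches on class I genes, and macrophages are known to raise the pathway when they sense bacteria or virus.

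Promoter sequence was available from RefSeq (assembly GRCm38.p6) for 8 of the 10 genes. Nlrc5 and Tap2 had no entry. The stretches shown come from both sides of the split in the LPS response after quantile normalisation, given further on. They are the bases that Tap1 and Psmb9 share as genes that point away from each other, and the window before Psmb8. The windows before B2m, H2-K1 and H2-D1, which were not called, are shown too. Those before Tapbp and Psmb10, which LPS raised, are not shown. Whether these sequences bear on the split was not tested. Each stretch shown ends at the base before the transcription start and holds no transcribed base of the gene it is named for. Capitals mark letter patterns on either strand. They are GAAANNGAA, a form of the core of the interferon-stimulated response element bound by IRF factors, TTCNNNGAA, the gamma-activated site, and GGGNNTTCC, a form of the NF-kB site.
Tap1 and Psmb9, chr17:34187331-34187555, + strand: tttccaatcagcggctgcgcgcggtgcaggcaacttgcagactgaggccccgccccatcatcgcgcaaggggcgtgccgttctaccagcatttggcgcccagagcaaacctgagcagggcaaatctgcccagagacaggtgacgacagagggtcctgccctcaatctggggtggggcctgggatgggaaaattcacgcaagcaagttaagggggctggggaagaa
Psmb8, chr17:34197945-34198194, + strand: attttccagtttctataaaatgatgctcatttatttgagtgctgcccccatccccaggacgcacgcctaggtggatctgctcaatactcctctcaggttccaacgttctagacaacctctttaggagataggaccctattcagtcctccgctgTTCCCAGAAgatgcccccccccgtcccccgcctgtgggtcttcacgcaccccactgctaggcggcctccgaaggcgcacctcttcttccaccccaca
B2m, chr2:122147437-122147686, + strand: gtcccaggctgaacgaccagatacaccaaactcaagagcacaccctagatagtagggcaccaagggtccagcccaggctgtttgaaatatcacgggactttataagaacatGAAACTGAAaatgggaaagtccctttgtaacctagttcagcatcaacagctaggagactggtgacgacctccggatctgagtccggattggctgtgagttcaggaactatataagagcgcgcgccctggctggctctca
H2-K1, chr17:34000348-34000597, - strand: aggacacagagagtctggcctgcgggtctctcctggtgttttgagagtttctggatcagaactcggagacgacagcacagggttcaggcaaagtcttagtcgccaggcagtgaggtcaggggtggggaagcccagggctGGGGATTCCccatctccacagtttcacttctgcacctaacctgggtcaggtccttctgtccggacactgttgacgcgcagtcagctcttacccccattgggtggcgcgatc
H2-D1, chr17:35262844-35263093, + strand: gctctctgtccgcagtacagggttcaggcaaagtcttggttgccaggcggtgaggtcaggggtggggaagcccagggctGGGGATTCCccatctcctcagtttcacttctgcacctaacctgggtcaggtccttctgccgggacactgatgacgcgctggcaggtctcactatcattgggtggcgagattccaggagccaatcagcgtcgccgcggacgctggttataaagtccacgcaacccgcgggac

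The form GAAANNGAA of the interferon core was found in the 250 bases before the start of 1 of these 8 genes, B2m. It lay there as GAAACTGAA 131 bases upstream, and was found in 7.13% of 32851 RefSeq promoter windows of that length. The H2-K1 and H2-D1 windows both hold tttcacttc, which is close to this form read on the other strand but does not match it. Other forms of the element were not searched for, so a window without a match may still hold one. The gamma-activated site was found before Psmb8 alone among the 8, as TTCCCAGAA 89 bases upstream, and in 7.02% of all windows. The NF-kB form lay before H2-K1 and H2-D1, in both as GGGGATTCC, and in 4.98% of all windows. The B2m window holds gggaaagtccc, which is close to this form read on the other strand but does not match it. Other forms of the NF-kB site were not searched for either, so a window without a match may still hold one. The H2-K1 and H2-D1 windows share a run of 47 identical bases. The CCAAT box, a general promoter element read by NF-Y, was found in 6 of the 8 genes and 33.8% of all windows. The matches of Tap1 and Psmb9 are the same site, in the bases that these genes share. None of the 4 letter patterns overlapped another in the windows shown. The 225 bases between Tap1 and Psmb9 hold none of the patterns marked in capitals, which says only that these letters are not in this stretch.

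LPS raised 7 of the 10 genes in each of the 3 genotypes, and they were the same 7: Tap1, Tap2, Tapbp, Psmb8, Psmb9, Psmb10 and Nlrc5. H2-K1, H2-D1 and B2m were called in none of the 3 genotypes, and no gene of the 10 was called lower. Among all genes tested, 18.7% were called higher in wt, 17.6% in MK2-/- and 20.3% in MK2/3-/- BMDM, and 23.6%, 27.2% and 28% were called lower. The median log2 difference of the 10 genes was 1.63 in wt, 1.25 in MK2-/- and 1.47 in MK2/3-/- BMDM, beside medians of -0.04, -0.01 and 0.02 over all genes. For each of the 7 genes every LPS array lay above every medium array, over all 22 arrays. The share of all genes tested that separate in this way was not counted, here or between genotypes. Under every alternative run here, which included leaving out each array in turn, the 7 genes were called higher in all 3 genotypes.

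**Figure D1:**
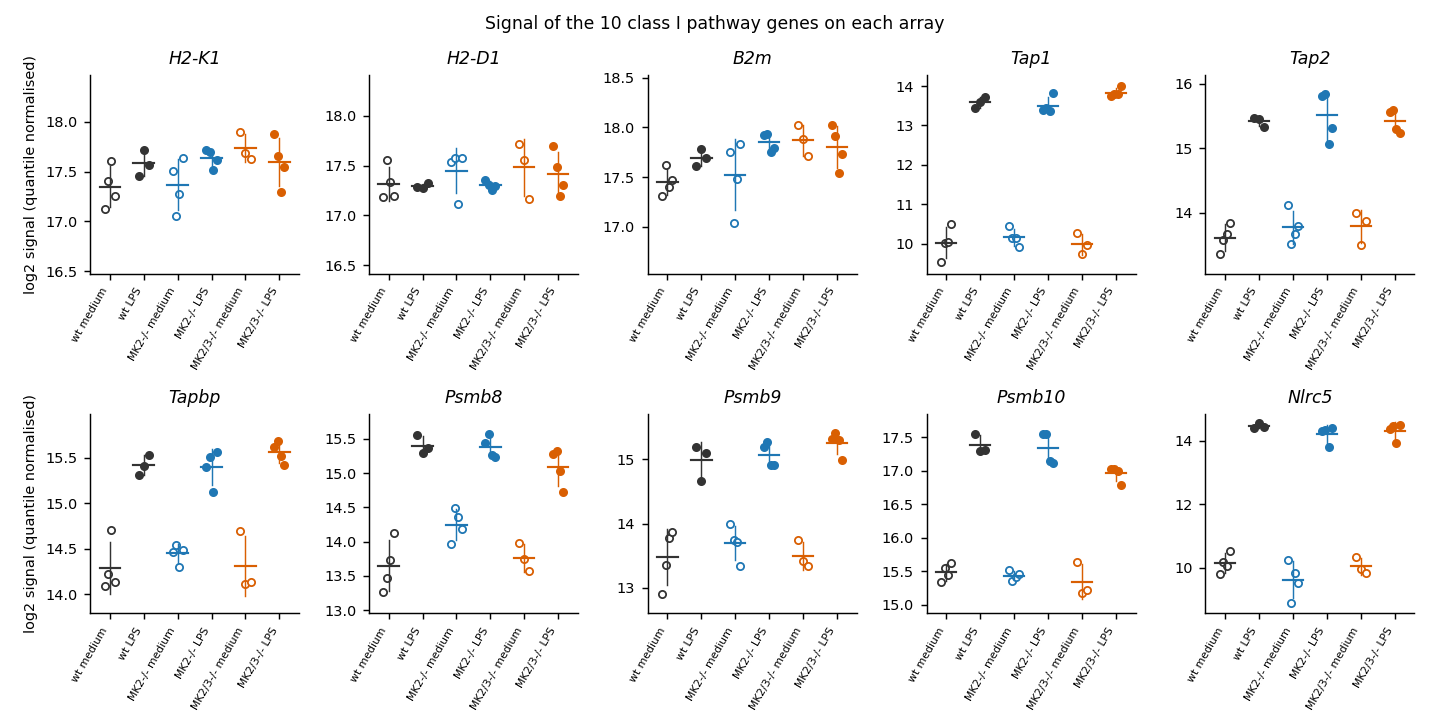
Log2 signal of the tested probe of each of the 10 genes (vertical axis, a range of its own in each panel) on the 22 arrays in 6 groups by genotype and treatment (horizontal axis). Points are arrays, open in medium and filled in LPS, horizontal lines are group means and vertical lines 1 SD. For 7 genes the LPS arrays sit apart from the medium arrays, while H2-K1, H2-D1 and B2m overlap.

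Nlrc5, the activator of the pathway, had the largest LPS difference of the 10 genes on their tested probes. Its probe (RefSeq NM_001033207) read 9.80, 10.18, 10.07 and 10.54 in wt medium and 14.40, 14.54 and 14.44 in wt LPS. In MK2-/- BMDM it read 10.25, 8.88, 9.85 and 9.53 in medium and 14.31, 14.34, 13.80 and 14.40 in LPS. Its wt means were 10.15 ± 0.31 (SD over 4 arrays) in medium and 14.46 ± 0.07 (SD over 3 arrays) in LPS. The MK2-/- medium arrays spread most (SD 0.58), and no LPS array came near a medium array. The log2 difference was 4.31 in wt (95% interval 3.76 to 4.87, a 19.9-fold rise), 4.58 in MK2-/- (4.07 to 5.09) and 4.27 in MK2/3-/- BMDM (3.72 to 4.83). The second Nlrc5 probe, A_66_P113043, was called higher too, but by 1.62, 1.32 and 1.85, so the size and rank of the Nlrc5 rise depend on the probe. Its median spot pixel reached 0.0119% to 0.0409% of the scanner's saturation value, against 0.0617% to 4.24% for the first.

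Tap1, one of the paired ATP-driven subunits of the peptide pump (NM_013683), rose next most on the tested probes. It read 9.54, 10.01, 10.04 and 10.49 in wt medium and 13.45, 13.59 and 13.71 in wt LPS. In MK2/3-/- BMDM it read 10.26, 9.73 and 9.96 in medium and 13.74, 13.80, 13.80 and 13.99 in LPS, where all 4 arrays lay above all 3 wt LPS arrays. That difference from wt was 0.25 and was not called (adjusted p = 0.391 in limma). With 75th percentile scaling it was 0.03 and was not called. The arrays overlapped on that scale, with MK2/3-/- LPS replicate 1 at 13.95 and wt LPS replicate 3 at 14.25. The quantile normalised wt means were 10.02 ± 0.39 (SD over 4 arrays) in medium and 13.58 ± 0.13 (SD over 3 arrays) in LPS. The LPS difference was 3.56 in wt (95% interval 3.14 to 3.99, an 11.8-fold rise), 3.35 in MK2-/- (2.96 to 3.74) and 3.85 in MK2/3-/- BMDM (3.43 to 4.27). The Tap1 probe was printed 10 times on each array, and the SD between those spots had a median of 0.125, beside SDs of 0.110 to 0.390 between the arrays of a group. Tap2, the partner subunit (NM_011530), rose less on its own probe, by 1.80 in wt, 1.73 in MK2-/- and 1.64 in MK2/3-/- BMDM. Its 11 LPS arrays ranged from 15.06 to 15.84 and its 11 medium arrays from 13.36 to 14.12. Tapbp, which tethers class I molecules to the pump (NM_001025313), had the smallest differences of the 7, with 1.12, 0.95 and 1.25, and ranges of 15.12 to 15.68 in LPS and 14.10 to 14.71 in medium.

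The 3 immunoproteasome subunits were called higher in each genotype. Psmb10 (NM_013640), the subunit also called MECL-1, rose by 1.90 in wt (95% interval 1.57 to 2.23), 1.90 in MK2-/- (1.60 to 2.21) and 1.61 in MK2/3-/- BMDM (1.28 to 1.94). Psmb8 (NM_010724), or LMP7, rose by 1.75 in wt (1.32 to 2.18), 1.13 in MK2-/- (0.73 to 1.53) and 1.33 in MK2/3-/- BMDM (0.90 to 1.76). Psmb9 (NM_013585), or LMP2, whose gene starts beside that of Tap1, rose by 1.51 in wt (1.04 to 1.98), 1.38 in MK2-/- (0.94 to 1.81) and 1.76 in MK2/3-/- BMDM (1.29 to 2.23). The 3 constitutive subunits that these replace gave smaller differences. Psmb5 differed by -0.17 in wt and was not called there, and it was called lower in MK2/3-/- BMDM (-0.52). Psmb6 was called only in MK2-/- BMDM (0.37), and Psmb7 was higher in wt (0.66) and MK2/3-/- BMDM (0.78) but not called in MK2-/- BMDM (0.29). With 75th percentile scaling, which is taken up with the class I molecule, all 3 were called higher in wt, Psmb5 by 0.63, Psmb6 by 0.89 and Psmb7 by 1.11, and Psmb5 in MK2/3-/- BMDM turned to 0.40 and was not called.

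The class I molecule itself was not called under quantile normalisation. H2-K1 (NM_001001892), one heavy chain, read 17.12, 17.40, 17.61 and 17.26 in wt medium and 17.46, 17.72 and 17.57 in wt LPS. B2m (NM_009735), the light chain, read 17.32, 17.62, 17.40 and 17.47 in wt medium and 17.61, 17.78 and 17.70 in wt LPS. H2-D1 (NM_010380), the other heavy chain, read 17.18, 17.55, 17.34 and 17.20 in medium and 17.28, 17.28 and 17.32 in LPS. The wt LPS arrays of H2-D1 fell inside the range of the medium arrays, and those of H2-K1 and B2m inside or just above it. The LPS differences of H2-K1 were 0.24 in wt (95% interval -0.13 to 0.60, adjusted p = 0.298), 0.27 in MK2-/- (-0.07 to 0.60) and -0.14 in MK2/3-/- BMDM (-0.50 to 0.22). Those of B2m were 0.24 (-0.13 to 0.62), 0.33 (-0.02 to 0.67) and -0.07 (-0.44 to 0.31). Those of H2-D1 were -0.02 (-0.38 to 0.33), -0.15 (-0.47 to 0.18) and -0.06 (-0.41 to 0.29), so that rises of up to about 0.6 in H2-K1 and B2m lie within the intervals. The second H2-K1 probe, A_55_P2049647, gave 0.27, 0.20 and 0.26, none called. Class I heavy chain genes are close in sequence, and signal shared between their probes was not tested.

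These 3 calls turned on the scaling between arrays. With each array set to its 75th percentile instead, all 10 genes were called higher in all 3 genotypes. H2-K1 then differed by 1.07 in wt, 1.07 in MK2-/- and 0.91 in MK2/3-/- BMDM, B2m by 1.07, 1.09 and 0.96, and H2-D1 by 0.82, 0.63 and 0.99. On this scale the 11 LPS arrays of H2-K1 ranged from 17.64 to 18.52 and the 11 medium arrays from 16.49 to 17.45, with no overlap, and the same held for H2-D1 and B2m. The 75th percentile also moved the median LPS difference of all genes, from -0.04 to 0.30 in wt, from -0.01 to 0.28 in MK2-/- and from 0.02 to 0.29 in MK2/3-/- BMDM. Relative to that median, H2-K1 differed by 0.77, 0.78 and 0.62, B2m by 0.77, 0.81 and 0.67, and H2-D1 by 0.52, 0.34 and 0.70. The share of LPS calls that were higher rose with it, from 44.2% to 60.5% in wt, from 39.2% to 53.6% in MK2-/- and from 42.1% to 54.1% in MK2/3-/- BMDM. The authors' own table of values lay between, with H2-K1 and B2m called higher in MK2-/- BMDM alone, by 0.42 (adjusted p = 0.0451) and 0.46 (adjusted p = 0.0295). No spot was saturated, and the median pixel of the H2-K1, B2m and H2-D1 probes reached 10.5% to 37.2% of the saturation value. Among the 2233 genes of highest mean signal, which include 8 of the 10, the median LPS difference in wt was -0.36 after quantile normalisation and 0.38 after 75th percentile scaling. Relative to that median, H2-K1 differed in wt by 0.597 after quantile normalisation and 0.692 after 75th percentile scaling. B2m differed by 0.605 and 0.693, and H2-D1 by 0.339 and 0.443. In MK2/3-/- BMDM the 2 scalings lay further apart, at 0.286 and 0.528, 0.360 and 0.581, and 0.366 and 0.608. These relative values were not tested. Which scaling is nearer to the change in the cells was not tested.

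**Figure D2:**
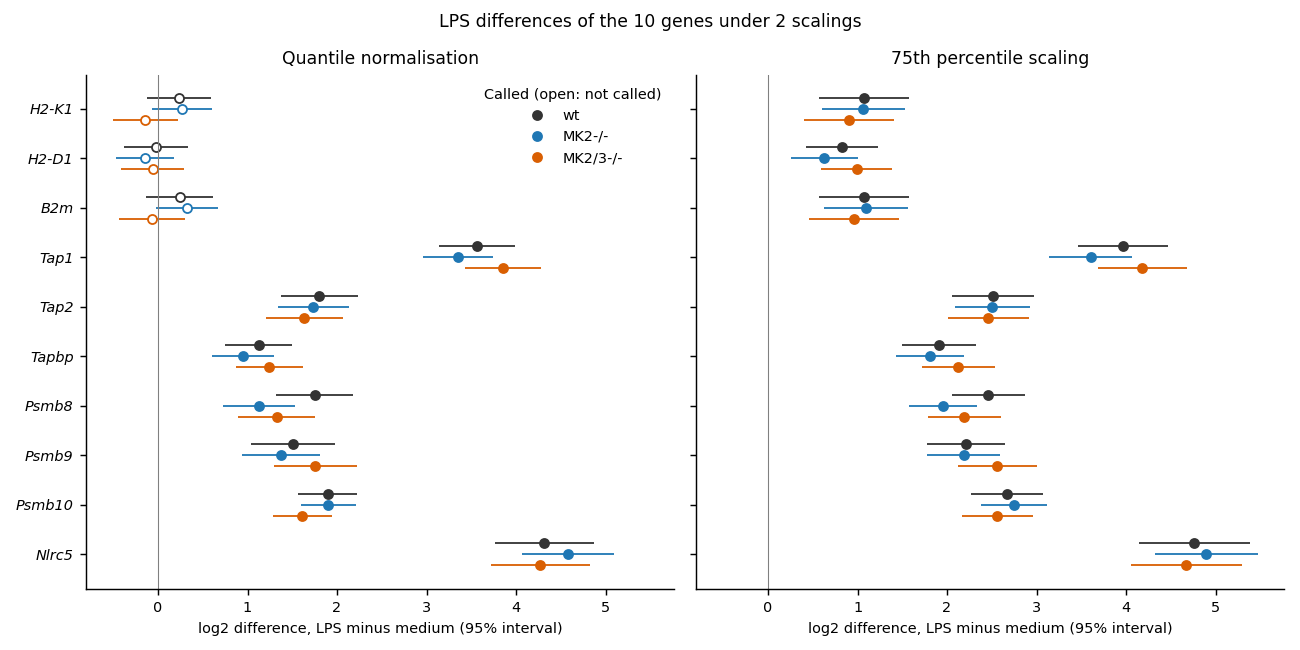
Log2 LPS difference (horizontal axis, LPS minus medium) of each of the 10 genes (vertical axis) in wt, MK2-/- and MK2/3-/- BMDM, after quantile normalisation (left) and after 75th percentile scaling (right). Points are limma estimates, filled where called, and bars are 95% intervals. H2-K1, H2-D1 and B2m are open on the left, between -0.15 and 0.33, and filled on the right, between 0.63 and 1.09.

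The loss of MK2, or of MK2 and MK3, was not accompanied by a call for any of the 10 genes. In LPS, 0 of 10 were called in MK2-/- against wt, where limma called 11.6% of all genes, 0 in MK2/3-/- against wt (23.7% of all genes) and 0 in MK2/3-/- against MK2-/- (13.6%). In medium, 0 of 10 were called in the same 3 comparisons, against 8.88%, 2.02% and 2.83% of all genes. At an unadjusted p under 0.05, limma counted 0, 1 and 1 of the 10 in LPS, against 29.5%, 36.7% and 28.4% of all genes, and 2, 2 and 2 in medium, against 25.9%, 16.9% and 15.0%. The methods' t-test counted 0, 2 and 2 in LPS and 1, 2 and 1 in medium. After Benjamini-Hochberg adjustment the t-test called 0 in all 6. The differences between genotypes ran from -0.43 to 0.33 in LPS and from -0.52 to 0.60 in medium, with 95% intervals that reached from -0.80 to 0.74 and from -1.03 to 1.00. These are the outermost ends over the 10 genes, and single genes had narrower intervals, such as -0.34 to 0.36 for H2-D1 in MK2-/- against wt in LPS.

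The LPS response itself was compared by the interaction of genotype and treatment, in which an additive effect of the slide cancels. None of the 10 genes was called in MK2-/- against wt, where limma called 0% of all genes, in MK2/3-/- against wt (0.69%) or in MK2/3-/- against MK2-/- (0.0672%). At an unadjusted p under 0.05 there were 1, 0 and 0 of the 10 by limma, against 7.54%, 11.4% and 8.61% of all genes, and 1, 0 and 1 by the t-test. The estimates ran from -0.62 to 0.50, and their intervals from -1.21 to 1.08. Tap1 gave the highest, a response larger by 0.50 in MK2/3-/- than in MK2-/- BMDM (95% interval -0.08 to 1.08, adjusted p = 0.656). Psmb8 gave the lowest, a response smaller in MK2-/- than in wt BMDM, at -0.62 (-1.21 to -0.03, unadjusted p = 0.0389 and adjusted p = 0.65 in limma).

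**Figure D3:**
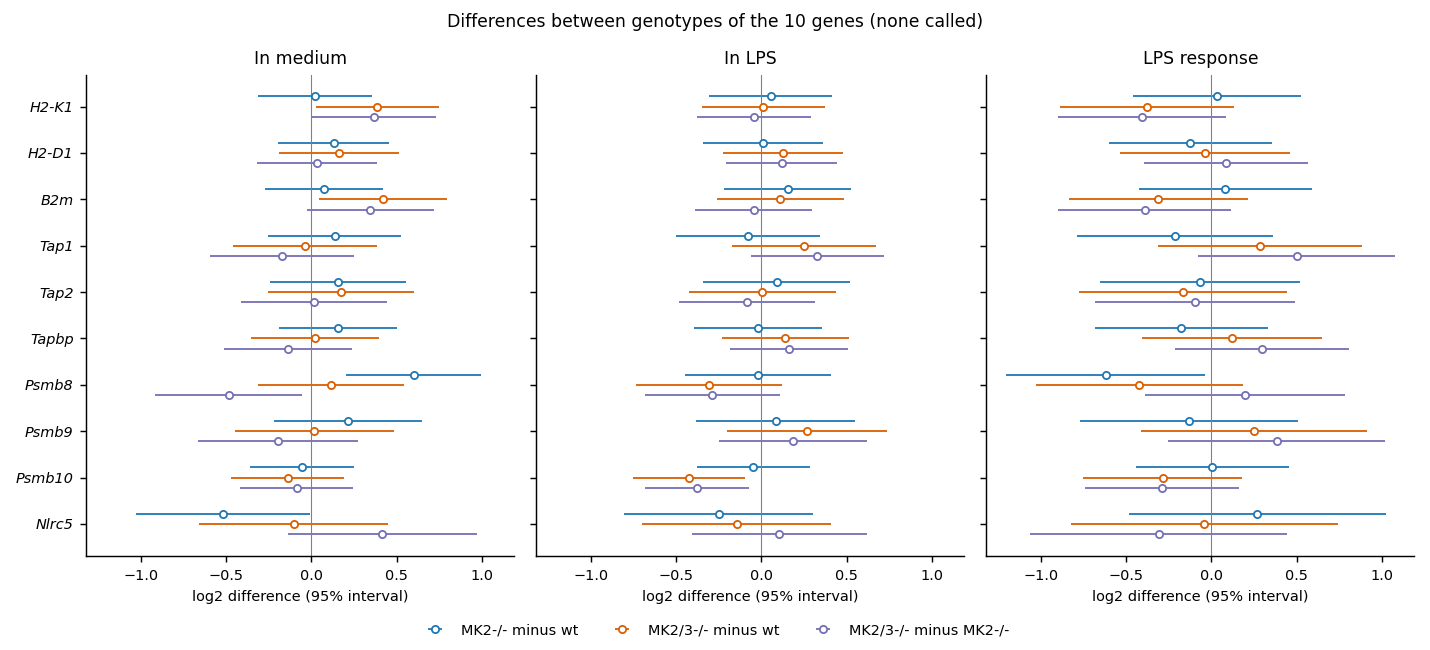
Log2 difference between genotypes (horizontal axis) of each of the 10 genes (vertical axis) in medium, in LPS and in the LPS response, the last being the difference of the LPS differences. Open points are limma estimates and bars 95% intervals. None was called, and the intervals farthest from 0 are those of Psmb8 in medium (MK2-/- minus wt) and Psmb10 in LPS (MK2/3-/- minus both others).

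Psmb10 in LPS was closest to a call among the comparisons of LPS-treated cells. It read 17.55, 17.29 and 17.31 in wt LPS and 17.54, 17.54, 17.15 and 17.11 in MK2-/- LPS. In MK2/3-/- LPS it read 17.02, 17.02, 16.99 and 16.79. After quantile normalisation all 4 MK2/3-/- arrays therefore lay below all 7 arrays of the other genotypes. How many of all genes separate in this way was not counted. The difference was -0.43 from wt (95% interval -0.76 to -0.10, adjusted p = 0.0573) and -0.38 from MK2-/- BMDM (-0.68 to -0.07, adjusted p = 0.093). The first was called with 75th percentile scaling (-0.52, adjusted p = 0.0406), with normexp background correction (-0.41, adjusted p = 0.0358) and without MK2/3-/- medium replicate 1 (adjusted p = 0.0484), and the second with array weights (-0.44, adjusted p = 0.0414). In medium the same comparisons gave -0.14 and -0.09, with overlapping arrays. In LPS with 75th percentile scaling, the MK2/3-/- arrays lay below all wt arrays but not below all MK2-/- arrays. There MK2-/- replicate 3 read 17.33, below the highest MK2/3-/- array at 17.43.

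Psmb8 in medium was the closest among resting cells. It read 13.26, 13.48, 13.73 and 14.13 in wt and 13.96, 14.49, 14.37 and 14.18 in MK2-/- BMDM. In MK2/3-/- BMDM it read 13.98, 13.75 and 13.57, within the range of wt. MK2-/- exceeded wt by 0.60 (95% interval 0.20 to 1.00, adjusted p = 0.0547), although the highest wt array lay above the lowest MK2-/- array. With 75th percentile scaling the difference was 0.27, the lowest of the alternatives, and was not called. The difference was called with normexp background correction (0.58, adjusted p = 0.048). It was also called without wt medium replicate 4 (0.76, adjusted p = 0.0276) and without MK2/3-/- LPS replicate 4 (0.60, adjusted p = 0.0462). In LPS the 2 genotypes differed by -0.02 (-0.45 to 0.41).

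On their tested probes after quantile normalisation, H2-K1 and B2m read higher on every array of resting MK2/3-/- than of resting wt BMDM. The share of all genes that do so was not counted. H2-K1 read 17.90, 17.69 and 17.63 in MK2/3-/- medium, above the highest wt array at 17.61, and B2m read 18.02, 17.88 and 17.71, above 17.62. The differences were 0.39 (95% interval 0.03 to 0.75, adjusted p = 0.255) and 0.42 (0.05 to 0.79, adjusted p = 0.229), neither called. The arrays overlapped on the second H2-K1 probe, at 17.25, 16.99 and 16.62 in MK2/3-/- medium against up to 16.93 in wt, and with 75th percentile scaling the differences were 0.12 for H2-K1 and 0.18 for B2m, with overlapping arrays for both. Nlrc5 gave -0.52 in resting MK2-/- against wt BMDM on its tested probe (-1.03 to -0.01, adjusted p = 0.187) and 0.40 on the other, so that its 2 probes differ in sign here.

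In medium, 2 arrays stood at the edge of their group for all 10 genes. Of the 4 wt arrays, replicate 1 was the lowest for all 10 genes. Of the 3 MK2/3-/- arrays, replicate 1 was the highest for all 10. No array of the MK2-/- medium group was, where the highest array differed by gene (replicate 1 for 5 genes, 4 for 3 and 2 for 2), nor was any LPS array after quantile normalisation. Both held for all 10 under 75th percentile scaling as well. Over all genes tested, the first array was the lowest of its group for 28.7% and the second the highest of its group for 35.0%. Of the 18 other class I family genes tested, described further on, the first was the lowest for 10 and the second the highest for 13. These counts were 3 and 11 of the 16 proteasome activator and other 20S genes, and 6 and 5 of the 17 transcription factors. Fibroblast markers (Col1a1, Col1a2, Pdgfra and Dcn, of which 3 were tested and well above background in every group) ran the other way on these arrays: their summed log2 signal was 16.64 on wt medium replicate 1, against 11.53 to 14.74 on the other wt medium arrays, and 8.68 on MK2/3-/- medium replicate 1, against 10.40 and 15.50. This did not extend to MK2-/- medium, where replicate 2 had the lowest fibroblast sum, 10.29, and was the lowest array for 5 of the 10 genes. Macrophage markers differed little, at 19.20 against 19.06 to 19.51 and at 19.51 against 19.22 and 19.40. T cell sums ran with the 10 genes on these arrays, at 9.73 against 10.25 to 10.64 and at 11.04 against 10.46 and 10.79. B cell sums were the lowest of the group on both arrays, at 6.77 and 7.28. Dendritic cell and neutrophil sums lay within those of the other arrays of the group. The part of fibroblast or other cell signal in the class I values was not tested. Without both arrays the 7 LPS-raised genes were still called in all 3 genotypes and 0 of 10 were called in each of the other 9 comparisons, and the resting MK2/3-/- differences from wt fell to 0.23 for H2-K1 and 0.30 for B2m. Among LPS arrays, MK2-/- replicate 3, the array with the most irregular spots, was the lowest for 7 of the 10 genes and for 47.1% of all genes, and for all 10 with 75th percentile scaling.

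**Figure D4:**
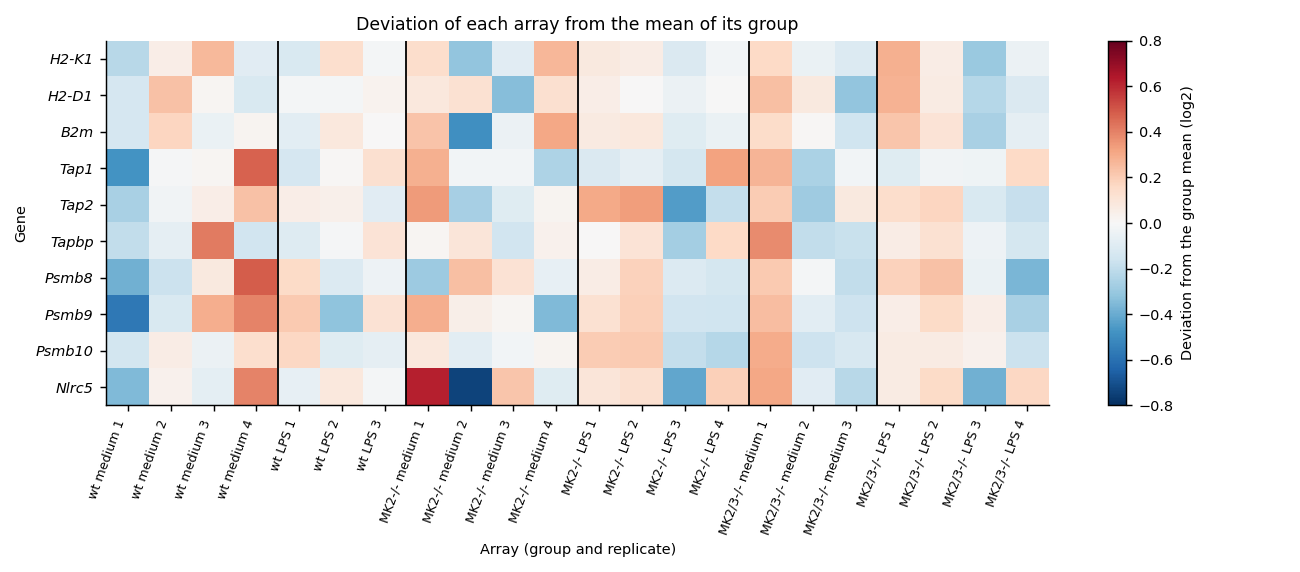
Deviation of each array from the mean of its group on the log2 scale (colour, red above and blue below) for the 10 genes (vertical axis) and the 22 arrays ordered by group (horizontal axis, black lines between groups). The column of wt medium replicate 1 is blue and that of MK2/3-/- medium replicate 1 is red for every gene.

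The genes whose profiles were most like the mean standardised profile of the 10, over 22 arrays and among 17509 other genes with a symbol and a value on every array, were Trim30a (Pearson r = 0.964), H2-T24 (0.963), Fcgr4 (0.963), Mndal (0.962) and Trim34a (0.959). All of these values include the step between medium and LPS. H2-T24 is a class I family gene outside the 10, Fcgr4 an antibody receptor, and LPS raised all 5 in wt BMDM, by 1.97 (Trim34a) to 3.85 (Fcgr4). With the group means subtracted, which leaves only the movement between arrays of a group, the closest were Mndal (0.861), Ube2l6 (0.819), Ifi27l2a (0.816), Malt1 (0.813) and Tnfrsf1b (0.809). Ube2l6 is the enzyme that conjugates the ubiquitin-like protein ISG15. LPS raised Mndal, Ube2l6, Malt1 and Tnfrsf1b in wt BMDM, by 3.67, 2.42, 4.25 and 2.95, whereas Ifi27l2a differed by 0.12 and was not called. Among the genes named by either measure, Tnfrsf1b was called between genotypes, lower in MK2/3-/- LPS than in wt (-0.55, adjusted p = 0.0461) and MK2-/- LPS (-0.56, adjusted p = 0.0463). These correlations describe likeness on the same arrays and were not tested.

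Other genes of the pathway were called in both directions under LPS after quantile normalisation. Of 16 proteasome activator and other 20S core genes, 10 were called higher and 3 lower in wt BMDM, with a median log2 difference of 0.60. Psme1 and Psme2, the subunits of the PA28 activator that opens the proteasome, rose by 1.26 and 1.69, and Psme3, the related nuclear activator, by 3.44. The core subunit Psma6 rose by 1.71 and Psma1 fell by 1.01. In MK2-/- BMDM 10 were higher and 4 lower, and in MK2/3-/- BMDM 9 and 3. Among 8 genes of peptide trimming and class I folding, 2 were higher and 3 lower in wt: Tapbpl, the tapasin relative that edits peptides, rose by 2.11 and the chaperone Hspa5 by 0.71, while Uggt1, which returns misfolded glycoproteins to folding, fell by 1.21, the lectin chaperone Canx fell by 1.05 and the glucosidase subunit Ganab fell by 0.79. The trimming peptidase Erap1 differed by 0.70 and was not called. With 75th percentile scaling, 13 proteasome genes were higher and 0 lower in wt, and of the folding genes 3 were higher and 1, Uggt1, lower. On that scale Psma1 (-0.20), Canx (-0.29) and Ganab (-0.21) were not called, so their fall depends on the scaling.

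Of 23 other class I family genes 18 could be tested, and 6 were higher and 3 lower in wt BMDM. H2-T24 and H2-T10 rose by 2.82 and 2.66. Relatives with other tasks fell under both scalings: Hfe, which controls iron uptake, by -2.48, Mr1, which presents vitamin metabolites, by -2.04, and Fcgrt, which rescues antibodies from breakdown, by -1.86 as log2 differences. In MK2-/- BMDM 4 were higher and 3 lower, and in MK2/3-/- BMDM 7 and 3. With 75th percentile scaling 11 were higher and 3 lower in wt.

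Of 17 transcription factors known to act on class I genes, 10 were higher and 3 lower in wt BMDM. Nfkb1 rose by 2.67, Stat2 by 2.60, Irf1 by 1.89 and Relb by 1.67. Rfxap, a subunit of the RFX complex that anchors Nlrc5 to promoters, differed by -2.27. In MK2-/- BMDM 11 were higher and 3 lower, and in MK2/3-/- BMDM 7 and 3. Of 10 interferon ligands, receptors and signalling genes, 6 were higher and 3 lower in wt. Ifnb1, the interferon beta gene, rose by 7.77 (2 of 4 medium arrays well above background), the feedback inhibitor Socs1 by 6.05, the kinase Jak2 by 3.86 and Tyk2 by 1.68, while Ifngr1, a chain of the interferon gamma receptor, differed by -1.91. Ifng was among the 6, but it was not well above background on any wt medium array and no fold is given. Both other genotypes had 5 higher, with 2 lower in MK2-/- and 3 in MK2/3-/- BMDM. With 75th percentile scaling the wt counts were 11 higher and 3 lower for the factors and 7 and 1 for the interferon genes.

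**Figure D5:**
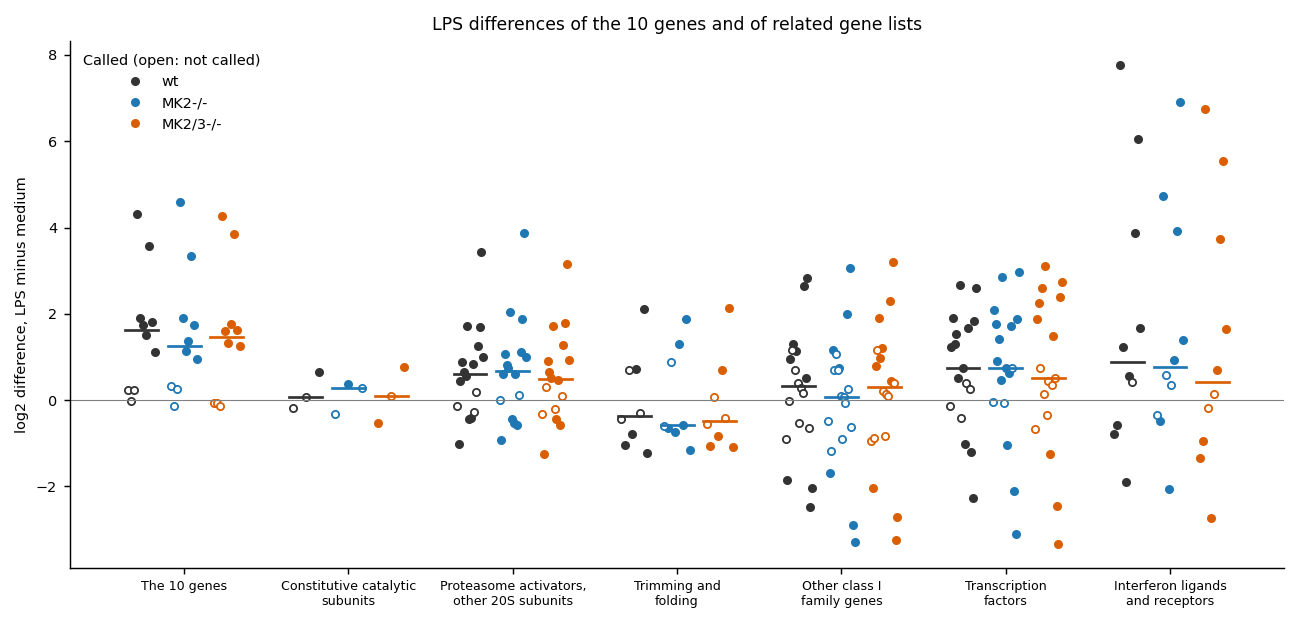
Log2 LPS difference (vertical axis, LPS minus medium) of the 10 genes and of the 6 related gene lists (horizontal axis) in wt, MK2-/- and MK2/3-/- BMDM. Points are genes, filled where called, and bars are medians. The 10 genes have medians of 1.25 to 1.63, and the lists hold called genes on both sides of 0.

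Of the 72 related genes tested, 4 (5.56%) were called in MK2-/- against wt in LPS, 5 (6.94%) in MK2/3-/- against wt and 3 (4.17%) in MK2/3-/- against MK2-/-, below the shares of all genes given above. In medium the counts were 2 (2.78%), 2 (2.78%) and 0, beside 8.88%, 2.02% and 2.83% of all genes, so the second was not below the share of all genes. In LPS Ifnb1 was lower in MK2-/- than in wt BMDM (-2.84, adjusted p = 0.0217), and Ifnar1, a chain of its receptor, was lower in MK2/3-/- than in MK2-/- BMDM (-0.82). Irf8, a macrophage lineage factor, was higher in MK2/3-/- than in wt BMDM in LPS (1.55). The 5 dendritic cell markers were higher by 0.70 to 2.54 in the same comparison, with 1 called, Xcr1 (at least 4.12-fold), and their summed log2 signal was 12.14 to 13.50 in MK2/3-/- LPS against 11.58 to 11.90 in wt LPS. Irf8 is also a dendritic cell factor, and the part of such cells in its value was not tested. The RFX subunits were lower than in wt in LPS, Rfxank by -0.76 in MK2-/- and -1.38 in MK2/3-/- BMDM, and Rfxap by -1.36 and -1.29, although Rfxap was well above background on only 2 of 4 LPS arrays in both knockouts. Of the class I family, H2-Q1 was higher in MK2/3-/- than in wt LPS (1.08), and H2-M9 was lower in MK2-/- than in wt (-1.53) and higher in MK2/3-/- than in MK2-/- LPS (1.85), with 2 of 4 MK2-/- LPS arrays well above background for it. H2-M10.3 was not well above background on any wt array or any MK2-/- LPS array, and MK2/3-/- BMDM were at least 4.92-fold higher than wt in medium, at least 3.57-fold higher than wt in LPS and at least 3.49-fold higher than MK2-/- in LPS, with 3 arrays of each MK2/3-/- group measured above background. The medium value rested on MK2/3-/- medium replicate 1, and without it was at least 2.31-fold. Ganab was lower in resting MK2-/- than in wt BMDM (-0.53). With 75th percentile scaling Rfxap (-0.62 and -0.41) and H2-M9 in MK2-/- against wt (-0.88) kept their sign but were not called. In the comparison of LPS responses none of the genes of these 6 lists was called.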

How the data were processed

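The authors hybridised Cy3-labelled RNA of each culture to a mouse gene array from Agilent, read in 1 colour. As deposited, the scanner output holds 62976 spots an array, each with an intensity from which Agilent Feature Extraction 11.0.1.1 had taken the background, and no scaling across arrays. Per the authors' methods, a second deposited data set gives log2 values that were quantile normalised and centred on the median of each probe. Set against the scanner values treated that way, its columns gave r of 0.993 to 0.999 and slopes of 0.971 to 0.994.

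The 3671 control spots were removed and irregular or outlying spots masked. The log2 processed intensity was quantile normalised over 22 arrays and averaged over the spots of a probe. RefSeq accessions named 27509 of 29150 probes (assembly GRCm38.p6, while the array design uses mm9). A filter kept 28033 probes that passed the scanner's background test on 3 or more arrays, and each gene was represented by its brightest probe. limma 3.58.1 in R 4.3.3, with data.table in version 1.17.8, fitted a mean for each of 6 groups, and 95% intervals come from that model. Figures were drawn with matplotlib 3.10.9 in Python 3.11.15. The steps were tested on simulated data. Groups follow the labels. The methods speak of 4 independent experiments, and the labels do not name the mouse of a replicate. The MK2-/- replicates of a treatment came from mice of different ages, and so from different mice. Some wt and MK2/3-/- replicates of a treatment share an age, so the labels do not settle this for them. The p-values measure the spread between these samples. The number of arrays limits the precision.

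Alternatives were 75th percentile scaling, normexp background correction with an offset of 50 on median foreground and background signals, the authors' values, no filter, another probe, only the groups compared, the methods' t-test, array weights, replicate blocks and leaving out each array. Genes named in the text were the 10 genes, up to 6 genes of each related list with the largest LPS difference in wt, list genes called between genotypes, the 5 genes most alike by each of 2 measures, and Mapkapk2 and Mapkapk3. 1 list gene that this rule would name is not reported here. The 10 genes, the lists and the markers were chosen with earlier results of these data known.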

Additional observations from a re-analysis of the deposited data

Results flagged for a closer look

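Among 48 sets of 4 arrays, 1 for each probe of the 10 genes in each group of 4, 6 had an array whose gap to its nearest neighbour relative to the range passed the 95% critical value of Dixon's ratio for 4 values. Chance alone gives about 1 in 20. For H2-D1 in MK2-/- medium, replicate 3 read 17.11 and the nearest array 17.53 (ratio 0.9). For Psmb10 in MK2/3-/- LPS, replicate 4 read 16.79 and the nearest 16.99 (ratio 0.873), and without it the difference from wt kept its direction. For Tap1 in MK2-/- LPS, replicate 4 read 13.83 and the nearest 13.44 (ratio 0.849). Both Nlrc5 probes singled out MK2-/- LPS replicate 3, the array with the most irregular spots: the tested probe read 13.80 against 14.31 (ratio 0.845) and the other 7.46 against 8.07 (ratio 0.846). The other Nlrc5 probe also read 5.92 on wt medium replicate 1 against 6.31 on the nearest array (ratio 0.848).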

How the results depend on the processing

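The count of 7 genes raised by LPS held in all 3 genotypes in every fit that left out an array (7 to 7) and was 7 to 10 in the other alternatives. In MK2/3-/- against wt in LPS the count of 0 became 1 with 75th percentile scaling and with normexp, and 0 to 1 when arrays were left out. In MK2/3-/- against MK2-/- in LPS it became 1 with array weights. In MK2-/- against wt in medium it became 1 with normexp, and 0 to 1 when arrays were left out. All other counts stayed at 0. The number of all genes called moved by less than 1.5 times in the LPS comparisons. Between genotypes in LPS it ran from 548 (the t-test) to 5944 (array weights) beside 2599 for MK2-/- against wt, from 62 (the t-test) to 8205 (75th percentile) beside 5287 for MK2/3-/- against wt, and from 720 (the t-test) to 4205 (array weights) beside 3036 for MK2/3-/- against MK2-/-. In medium it ran from 780 (without MK2-/- medium replicate 2) to 4899 (75th percentile) beside 1983, from 6 (without wt medium replicate 1 and MK2/3-/- medium replicate 1) to 4259 (75th percentile) beside 452, and from 269 (without the same arrays) to 1843 (array weights) beside 632. For the LPS response it ran from 0 to 69 beside 0, from 0 to 1235 beside 154 and from 1 to 152 beside 15, highest with array weights. Of 120 differences of a gene in a comparison, 61 kept sign and call in every alternative, 12 were called in at least 1 alternative but not as reported, and 0 lost a call. Of the 12, 5 also turned sign, with 75th percentile scaling: H2-D1 under LPS in all 3 genotypes and H2-K1 and B2m in MK2/3-/- BMDM. Another 47 uncalled differences changed sign in at least 1 alternative. The alternative without wt medium replicate 1 and MK2/3-/- medium replicate 1 was chosen after seeing the data. Arrays of LPS and medium with the same replicate number deviated together (r above 0.1) in 7 of 10 pairs but not in all, and the labels do not tie a number to a mouse or day, so the numbers were not taken to pair the samples. Arrays with the same letter in the array name did so in 7 of 10 pairs too, against 6 of 30 pairs of different letters, and came from mice of the same age in 10 of 10 pairs against 5 of 30, which is a hint of pairing from the data. With the replicate number as a block the counts were 7 for LPS in each genotype and 0 elsewhere, and with the array letter as a random block (correlation 0.144) they were the same. Limits are the 3 or 4 arrays a group, the coincidence of genotype and slide, and the scaling on which H2-K1, H2-D1 and B2m turn. Related class I genes may also share signal on a probe, which was not tested.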
